A study of Mus musculus with 17 samples.

Results

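Interferon-stimulated genes are the genes that cells switch on when an interferon binds its receptor. In mouse liver RNA, 44 of them were followed through a cross of hepatocyte Gata4 genotype and the liver X receptor (LXR) agonist GW3965. The members were chosen by gene symbol from the 24676 genes of the normalized count table. All 44 were found, and 44 of 44 passed the filter on low values (4 or more libraries at 10 normalized counts or above), as did 13379 genes in all.

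Type I interferons bind the IFNAR1 and IFNAR2 receptor and, through JAK kinases, activate a complex that includes STAT2 and IRF9. That complex binds the interferon-stimulated response element (ISRE) in the promoters of antiviral genes. Interferon gamma acts through a separate receptor and the gamma-activated sequence (GAS) in promoters, and favours GTPases and antigen-processing genes. In liver, hepatocytes, Kupffer cells (the resident macrophages) and endothelium all express genes of this response, and the response is best known from viral infection.

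The 17 libraries came from male mice of mixed strain, 11 weeks old per the sample labels (the series text gives another age), and every group carried homozygous floxed Gata4 alleles (Gata4 fl/fl). Control mice had received an empty AAV8 virus. Gata4LKO mice had received AAV8-Tbg-Cre, in which the hepatocyte promoter Tbg drives Cre, so the Cre cargo and the Gata4 genotype cannot be told apart. At 1 week after the virus, mice were dosed by gavage, first 17 h and again 8 h before they were killed, after a fast of 4 h. The dose was GW3965 at 40 mg/kg in canola oil, and vehicle was canola oil with DMSO. There were 4 libraries each of control vehicle, Gata4LKO vehicle and control GW3965, and 5 of Gata4LKO GW3965. The labels do not say that each library was a separate mouse, so p-values measure the spread between libraries.

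Groups follow the sample titles. The treatment labels contradicted the titles in 8 libraries, which make up 2 groups, Gata4LKO vehicle and control GW3965. The LXR target genes went with the titles: Abcg8, a sterol exporter, stood at 1845 to 2929 normalized counts in the 8 libraries titled vehicle and at 3552 to 8627 in the 9 titled GW3965. Liver identity was plain, with Alb, which encodes albumin, at 895197 normalized counts or more in every library. Gata4 itself stood at 128 to 183 in control vehicle and 137 to 234 in Gata4LKO vehicle libraries, so the libraries labelled Gata4LKO did not have less of it. Because the count covers the whole gene, including exons that Cre leaves in place, it is only a partial check of the label. Depth was 11.8 to 22.05 M reads assigned to genes. In 5 of them (replicates 1, 10, 13, 17 and 18) 15.6% to 32.6% of normalized counts were mitochondrial, against 6.06% to 7.26% in the other 12. Replicates 6 and 16 had fewer genes above 0 than the rest. All 4 Gata4LKO vehicle libraries and replicates 9 and 10 of control GW3965 had almost no reads of the pseudogene Gm5345, at most 1.64 normalized counts, against 23.1 to 101 in the other 11. That split coincides with genotype among the vehicle libraries, where it cannot be told apart from it.

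Some of the member promoters carried matches to the sequences through which the module is known to be driven, and others had none. RefSeq (build GRCm38.p6) had a promoter for 34 of the 44 members, 38 promoters in all. The ISRE was searched as GAAANNGAAA on both strands, in the window of 250 bases before to 50 bases after each start. It was present in 18 of the 38 member promoters (47.4%), belonging to 17 genes, and in 3.44% of all 32851 promoters. The GAS, searched as TTCNNNGAA, which reads the same on both strands, was present in 7 of the 38 (18.4%) and in 8.30% of all promoters. All 5 interferon-inducible GTPases held an ISRE in the window, while none of the 3 antigen-processing genes did. A GAS was present in 2 of the 5 GTPases (Gbp7 and Igtp) and 1 of the 3 antigen-processing genes (Psmb8). The other members with a GAS were Ifit2, Oas1a, Bst2 and Ifi35. A match is a description of the letters and not a binding site. Sequences are given 5′ to 3′ on the gene's strand for bases upstream of the start of Isg15 (chr4:156200819-156200928, minus strand), Ifit1 (chr19:34640779-34640870, plus strand), Gbp3 (chr3:142559934-142560025, plus strand), Gbp7 (chr3:142530226-142530335, plus strand) and Igtp (chr11:58199446-58199555, plus strand). They are shown because the last 3 were at their highest in 1 library, described below, in which the first 2 were not. Being picked by those values, they do not bear on a link between motif and level. Gbp2 and Irgm1, also highest in that library, held no GAS, and Ifit2, Oas1a, Bst2 and Ifi35 were not highest there. Capitals mark ISRE and GAS matches. A match on the opposite strand reads TTTCNNTTTC, as in Ifit1, Gbp3 and Gbp7.
Isg15: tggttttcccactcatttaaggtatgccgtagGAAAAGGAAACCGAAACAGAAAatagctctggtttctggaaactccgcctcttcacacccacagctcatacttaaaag
Ifit1: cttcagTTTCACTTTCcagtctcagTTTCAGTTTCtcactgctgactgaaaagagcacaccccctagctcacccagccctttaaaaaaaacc
Gbp3: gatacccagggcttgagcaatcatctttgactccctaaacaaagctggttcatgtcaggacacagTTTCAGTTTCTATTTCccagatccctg
Gbp7: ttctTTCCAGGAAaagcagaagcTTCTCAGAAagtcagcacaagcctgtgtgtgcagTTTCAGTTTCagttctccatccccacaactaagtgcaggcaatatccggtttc
Igtp: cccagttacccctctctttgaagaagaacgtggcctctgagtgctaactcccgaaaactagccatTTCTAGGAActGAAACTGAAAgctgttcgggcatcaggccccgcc
The capitals of Isg15 hold 3 overlapping ISRE matches and those of Gbp3 hold 2 overlapping ones. Ifit1 has 2 separate ISRE matches. Gbp7 has 1 ISRE match downstream of 2 GAS matches, and Igtp has 1 GAS match just upstream of 1 ISRE match.

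The module was expressed at modest levels in all 17 libraries. Per kb of exon, which is the scale on which genes can be compared, the median member had a mean normalized count of 30.4, against 45.5 for all genes tested with an annotated length, and 24 of 44 members lay below that. Bst2, which encodes tetherin, an antiviral membrane protein, was the highest at 752 per kb. The lowest was Oas3, an enzyme that makes 2′-5′ oligoadenylates in response to double-stranded RNA, at 1.31 per kb. The members varied between libraries of 1 group more than most genes: the standard deviation (SD) of log2(normalized count + 1) within groups was above the median of all genes (0.32) in 30 of 44. It ran from 0.10 in Parp9, a partner of the ubiquitin ligase DTX3L, to 1.17 in Oas3. In 23 members the mean normalized count was below 100, and 22 of those 23 had an SD above the median of all genes.

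**Figure D1:**
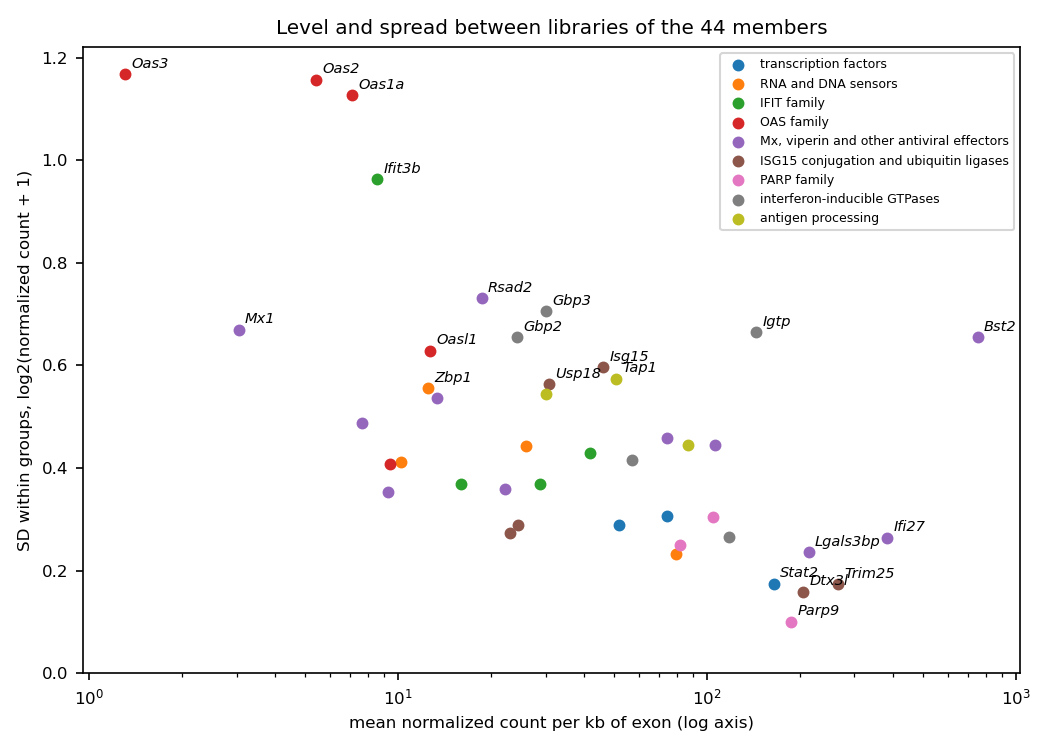
Mean normalized count per kb of exon (log axis) against the SD within groups of log2(normalized count + 1) for the 44 members, coloured by role. Members of low level, above all Oas1a, Oas2, Oas3 and Ifit3b, have the largest spread, and Parp9, Dtx3l, Trim25 and Stat2 the smallest.

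Members lie on 14 chromosomes (mm10, GENCODE M21), and several are neighbours. The 4 IFIT genes lie together on chromosome 19 and 3 GBP genes on chromosome 3. The 5 OAS genes share chromosome 5. Dtx3l and Parp9 on chromosome 16 and Psmb9 and Tap1 on chromosome 17 start within 681 and 211 bases of each other on opposite strands. No source used here states whether counting used strand, so reads at their overlaps may be shared. Copies so alike that reads can be split between them make 3 members uncertain. Of the 31-base windows of their exons, Oas1a shared 68.8% with other genes, mostly with Oas1g, Ifit3 shared 61.8% and Ifit3b 55.2%, mostly with each other.

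No member passed the test in any of 7 comparisons. limma was fitted to log2(normalized count + 1), with each group as a coefficient and Benjamini-Hochberg adjustment over 13379 genes, with calls made where that adjusted p was below 0.05. edgeR and DESeq2 on the recovered reads also called 0 members in each of the 7. Of all genes, edgeR called 0.0149%, 0.0374%, 0.755%, 0.232%, 0.0%, 1.73% and 0.194%, in the order in which the comparisons follow here, and DESeq2 called 0.366%, 0.606%, 1.69%, 1.5%, 0.194%, 3.94% and 0.964%. Likewise the authors' deposited table called 0 in each of its 5 comparisons. For Gata4LKO against control with vehicle, limma called 0 of 44 members, against 0.0149% of all genes. With GW3965 the same contrast called 0 of 44, against 0.0598% of all genes. For GW3965 against vehicle, limma called 0 of 44 in control livers, where 0.792% of all genes were called, and 0 of 44 in Gata4LKO livers, where 0.247% were. The interaction of genotype and GW3965 called 0 of 44 (0.0149% of all genes). Averaged over the other factor, GW3965 called 0 of 44 (1.78% of all genes) and genotype 0 of 44 (0.224%; 47.2% of all genes had a higher mean in Gata4LKO). At an unadjusted p below 0.05 the counts in that order were 1, 2, 6, 4, 3, 7 and 1 members. The shares of all genes at that level were 6.15%, 6.47%, 8.96%, 12%, 4.65%, 15.3% and 7.19%. The largest of these counts were 6 of 44 in control livers given GW3965 and 7 of 44 for GW3965 averaged. They stand beside 8.96% and 15.3% of all genes and are not read as a result about the members.

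Taken by sign alone, the members leaned upward in 2 comparisons and downward in the other 2 simple ones. With vehicle, 35 of 44 had a higher mean in Gata4LKO than in control libraries (48.5% of all genes), with a median log2 difference of 0.23. With GW3965 16 of 44 did (47.1% of all genes), with a median of -0.084. GW3965 against vehicle gave a higher mean in 33 of 44 members in control livers (49.1% of all genes; median 0.22) and in 16 of 44 in Gata4LKO livers (49.4%; median -0.10). The median of all genes lay between -0.014 and -0.0049 in these comparisons, which share groups: the control vehicle libraries stand in both comparisons that leaned upward, and the Gata4LKO GW3965 libraries in both others. In the interaction 34 of 44 members had a negative sign, with a median of -0.33 (50.6% of all genes were negative). Members read in the same libraries are not separate observations, so these counts are a description. Per library, the mean log2 level of the 44 members was also set against its mean over libraries. That deviation ran from -0.35 to 0.13 in control vehicle and from -0.041 to 0.23 in Gata4LKO vehicle libraries. With GW3965 it ran from -0.34 to 0.48 in control and from -0.17 to 0.065 in Gata4LKO libraries, so the groups overlapped.

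**Figure D2:**
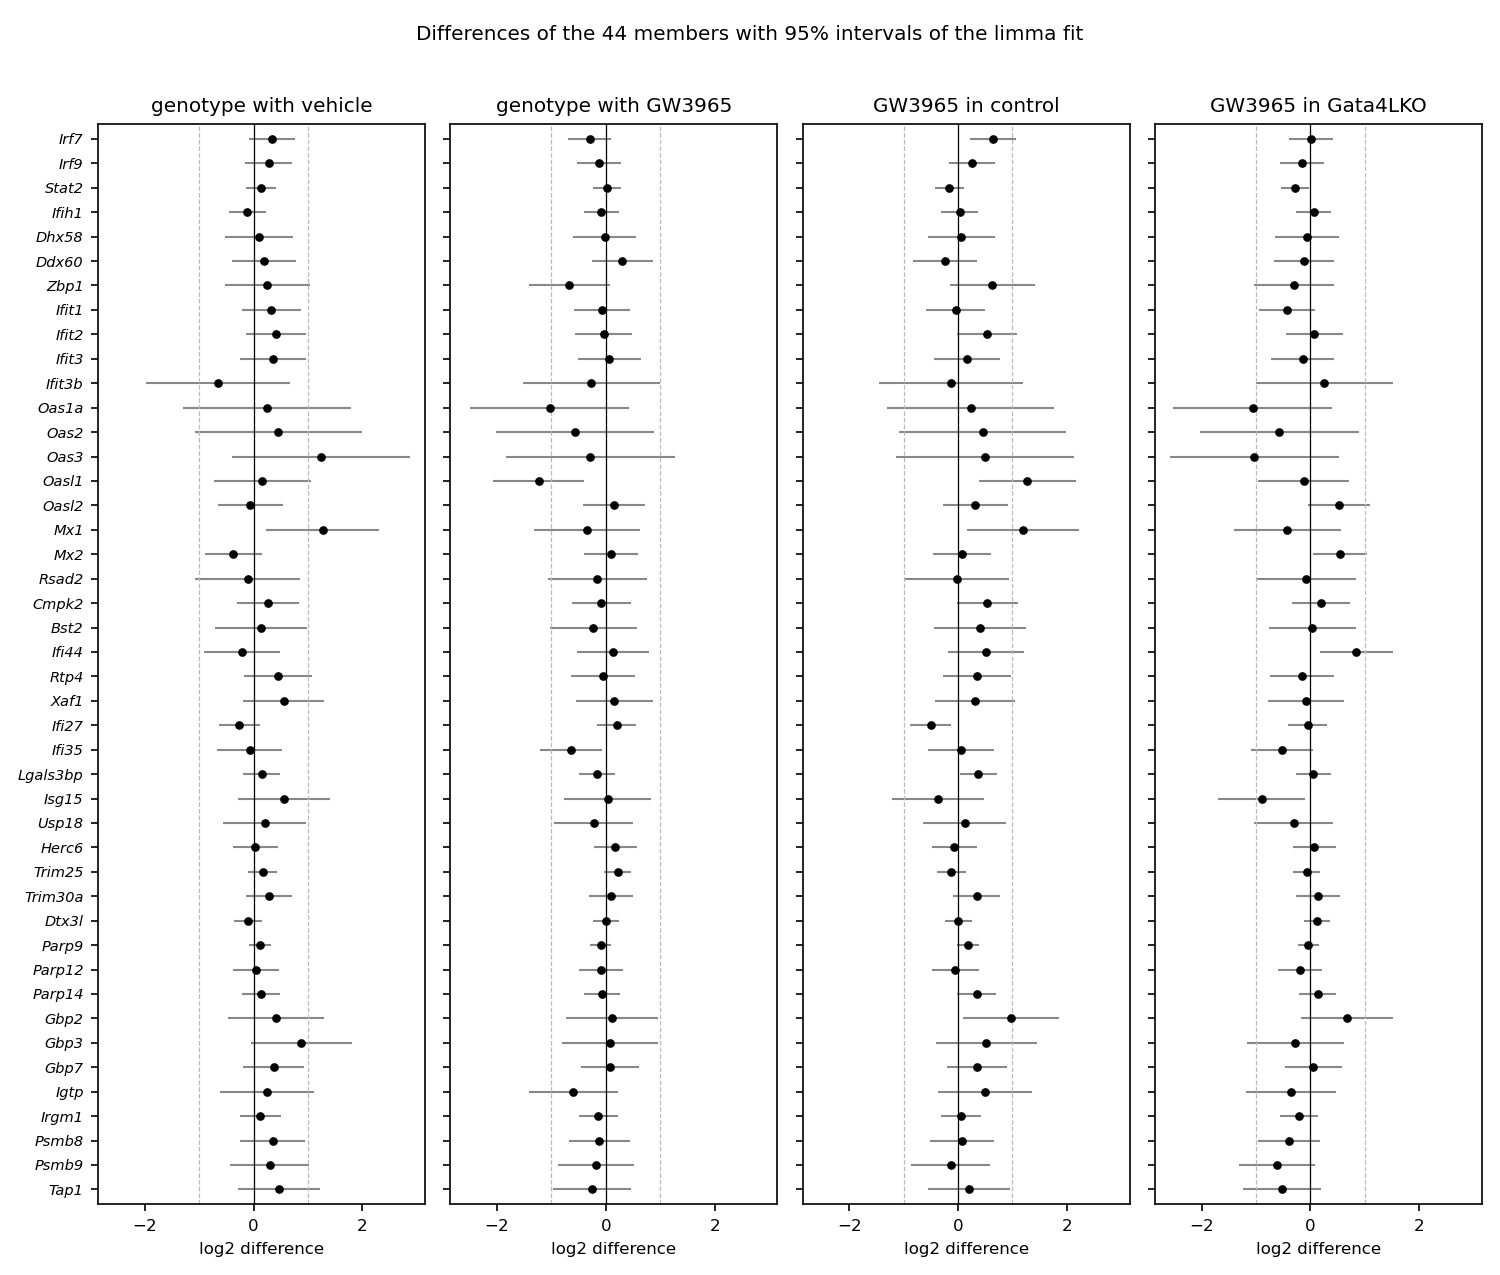
Log2 differences of the 44 members in the 4 simple comparisons, with 95% intervals of the limma fit and dashed lines at a 2-fold difference. Points lie mostly right of 0 in the panels for genotype with vehicle and GW3965 in control, and most intervals cross 0.

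The intervals set how large a difference could have been missed. The 95% interval lay within a 2-fold difference either way for 28 of 44 members between genotypes with vehicle and for 33 with GW3965. For GW3965 it did so for 27 in control and 27 in Gata4LKO livers. The shares of all genes were 73.0%, 75.9%, 71.9% and 71.4%. In all 4 comparisons it did so for 19 members, among them Stat2, Ifih1, Ifit1, Ifit3, Trim25, Parp9, Gbp7 and Psmb8. For 7 members it did so in none: Zbp1, Ifit3b, Oas1a, Oas2, Oas3, Mx1 and Igtp. For those 7 a 2-fold difference could not be bounded at this spread in any of the 4. The interaction was the least precise, with 15 of 44 members bounded within 2-fold.

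The transcription factors of the module are Irf7, which amplifies type I interferon production, and Irf9 and Stat2, which are parts of the ISRE-binding complex. Irf7 stood at 158, 184, 102 and 175 normalized counts in the 4 control vehicle libraries and at 158, 255, 186 and 176 in the 4 Gata4LKO vehicle libraries. With GW3965 it stood at 312, 196, 246 and 209 in control and at 173, 167, 207, 225 and 195 in Gata4LKO libraries. All 4 control GW3965 libraries were above all 4 control vehicle libraries, with the highest value in replicate 9. The difference was 0.65 ± 0.20 (log2 ± SE; limma adjusted p = 0.209), the smallest p of any member in that comparison, and 0.013 ± 0.19 in Gata4LKO livers (limma adjusted p = 0.979). Between genotypes it was 0.34 ± 0.20 with vehicle and -0.30 ± 0.19 with GW3965 (limma adjusted p = 0.888 and 0.963). The first was 0.15 without replicate 3 and the second -0.16 without replicate 9. Normalized counts of Stat2 were 968, 965, 972 and 1081 in control vehicle and 949.7, 1323, 1107 and 1031 in Gata4LKO vehicle libraries. In the GW3965 groups they were 1111, 726, 851 and 921 in control and 835, 826, 969, 996 and 902 in Gata4LKO libraries. The 4 groups overlapped throughout, and the log2 differences ran from -0.28 for GW3965 in Gata4LKO livers to 0.14 for genotype with vehicle (limma adjusted p = 0.388 and 0.955). Irf9 had its highest value, 696, in control GW3965 replicate 9 and lay between 320 and 586 in the other 16 libraries.

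Sensors of foreign nucleic acid were represented by Ifih1, Dhx58 and Ddx60, helicases that bind viral RNA or assist the sensors that do, and by Zbp1, a sensor of Z-form nucleic acid. In control vehicle libraries Ifih1 was at 632, 703, 666 and 632 normalized counts, and in Gata4LKO vehicle libraries at 573, 581, 713 and 574. After GW3965 the values were 742, 581, 592 and 801 in control and 602, 586, 527, 956 and 578 in Gata4LKO libraries. Replicate 17, the library of highest mitochondrial share, was the highest of all 17, and the groups overlapped. The log2 difference lay between -0.11 and 0.062 in the 4 simple comparisons (limma adjusted p of 0.871 or more). For Zbp1 the normalized counts were 27.8, 69.04, 20.8 and 39.8 in control vehicle and 38.04, 49.4, 44.3 and 39.4 in Gata4LKO vehicle libraries. The control GW3965 libraries had 106, 30, 47.2 and 62.4, and the Gata4LKO GW3965 libraries 21.98, 49.8, 32.8, 36.6 and 36.8. Replicate 9 was the highest and the other values overlapped between groups. With GW3965 the difference between Gata4LKO and control was -0.67 ± 0.35 (limma adjusted p = 0.852), and -0.36 without replicate 9. Dhx58 and Ddx60 had medians of 85.2 and 94.4 over the 17 libraries and log2 differences between -0.24 and 0.31.

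IFIT proteins bind viral RNA that lacks the caps of host messages. Ifit1 stood at 83.4, 62.4, 52.04 and 102 normalized counts in the 4 control vehicle libraries and at 90.1, 103, 87.01 and 84.99 in the 4 Gata4LKO vehicle libraries. With GW3965 it stood at 97.5, 49, 64.7 and 78.4 in control and at 65.95, 75.98, 46.7, 57.8 and 100.4 in Gata4LKO libraries. The groups overlapped, and the largest log2 difference was -0.43 ± 0.24, for GW3965 in Gata4LKO livers (limma adjusted p = 0.466). Ifit2, with 38.8 to 53.9 in control vehicle and 57.9 to 68.1 in Gata4LKO vehicle libraries, was 1 of 2 members whose vehicle groups did not overlap, with Gbp3 (higher in Gata4LKO, as for 3.0% of all genes; 0 members were lower without overlap, against 3.58%). Its difference there was 0.41 ± 0.26 (limma adjusted p = 0.912); it was named after its values were seen. Ifit3 and Ifit3b overlapped between groups, and Ifit3b ranged from 2.10 in replicate 6 to 36.8 in replicate 18.

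The OAS family held 3 of the 4 members with a log2 difference above 1 in size in a simple comparison, Mx1 being the other, and none passed the test. OASL1 is known in mouse as an inhibitor of Irf7 translation, and OAS1A, OAS2 and OAS3 activate RNase L. Normalized counts of Oasl1 were 25.3, 20.04, 19.9 and 24.3 in control vehicle and 13.3, 17.9, 34.5 and 46.4 in Gata4LKO vehicle libraries. In the GW3965 groups they were 46.7, 58, 42.8 and 79.7 in control and 18.8, 21.2, 12.9, 61.7 and 18.97 in Gata4LKO libraries. Every control GW3965 library was above every control vehicle library. Of the 5 Gata4LKO GW3965 libraries, 4 were below every control GW3965 library, replicate 17 being the exception at 61.7. Replicate 17 and the control GW3965 libraries at 58 and 79.7 were of high mitochondrial share, while those at 46.7 and 42.8 were not. In all 3 groups that hold both kinds, the mean was higher in the libraries of high mitochondrial share. Over all groups those ran from 18.97 to 79.7 (median 58), against 12.9 to 46.7 (median 20.6) in the others. The part of mitochondrial share in these values was not tested. GW3965 in control livers gave a difference of 1.27 ± 0.42 (limma adjusted p = 0.259), and Gata4LKO against control with GW3965 gave -1.24 ± 0.40 (limma adjusted p = 0.443). These 2 comparisons share the control GW3965 libraries. The interaction for Oasl1 was -1.40 ± 0.58 (limma adjusted p = 0.997).

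In control vehicle libraries Oas1a was at 7.58, 17.8, 9.46 and 16.5 normalized counts, and in Gata4LKO vehicle libraries at 14.7, 8.42, 19.7 and 18.4. After GW3965 the values were 12.5, 8, 20.98 and 19.9 in control and 15.7, 19.6, 14.9, 0 and 3.35 in Gata4LKO libraries. The low end was 0 in replicate 17 and 3.35 in replicate 18, both libraries of high mitochondrial share. GW3965 in Gata4LKO livers gave -1.06 ± 0.70 (limma adjusted p = 0.521), and 0.18 without the 5 libraries of high mitochondrial share. Between genotypes with GW3965 the values were -1.03 ± 0.70 (limma adjusted p = 0.973) and 0.033. For Oas3 the normalized counts were 10.1, 1.11, 6.62 and 4.85 in control vehicle and 4.67, 35.8, 13.95 and 9.64 in Gata4LKO vehicle libraries. The control GW3965 libraries had 5.83, 9, 8.74 and 5.31, and the Gata4LKO GW3965 libraries 18.1, 6.54, 6.96, 0 and 10.04. Replicate 6, a library with few genes above 0, held the highest value. With vehicle the genotype difference was 1.25 ± 0.78 (limma adjusted p = 0.904), and 0.76 without replicate 6. GW3965 in Gata4LKO livers gave -1.03 ± 0.74 (limma adjusted p = 0.548), and -0.35 without replicate 17. At a mean of 9.25 normalized counts, Oas3 rests on few reads. Oas2 was at 0.994 in replicate 16 and between 6.62 and 44.3 elsewhere, and Oasl2 was at 127 in replicate 17 and between 32.2 and 90.4 elsewhere.

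Among the effectors, Mx1 and Mx2 are dynamin-like GTPases, Rsad2 encodes viperin, and Cmpk2 a nucleotide kinase beside it on chromosome 12. Mx1 stood at 2.53, 6.68, 3.78 and 10.7 normalized counts in the 4 control vehicle libraries and at 9.34, 14.7, 18.9 and 14.9 in the 4 Gata4LKO vehicle libraries. With GW3965 it stood at 14.2, 13, 13.99 and 11.96 in control and at 6.28, 13.1, 25.8, 3.85 and 12.3 in Gata4LKO libraries. All 4 control GW3965 libraries were above all 4 control vehicle libraries, and the other pairs of groups overlapped. GW3965 in control livers gave 1.19 ± 0.49 (limma adjusted p = 0.444), and genotype with vehicle gave 1.27 ± 0.49 (limma adjusted p = 0.666), the largest difference of any member there. Both rest on the same control vehicle libraries. The interaction for Mx1 was -1.62 ± 0.68 (limma adjusted p = 0.997). Many laboratory strains carry a disabled Mx1 allele; the strain here is given only as mixed.

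Irf7, Oasl1 and Mx1 were the 3 members whose control vehicle and control GW3965 libraries did not overlap, all higher with GW3965 (3.13% of all genes). No member was lower in that sense (2.71% of all genes). Between genotypes with GW3965 no member separated the groups (0.822% of all genes higher and 1.14% lower). Ifi44, of uncertain function, had the smallest adjusted p of any member in any comparison. It stood at 25.5 to 51.8 in control vehicle, 16.8 to 44.3 in Gata4LKO vehicle, 43.3 to 79.7 in control GW3965 and 40.8 to 79.5 in Gata4LKO GW3965 libraries. Averaged over genotypes (higher mean in 48.9% of all genes), GW3965 against vehicle gave 0.68 ± 0.23 for it (limma adjusted p = 0.164); it was named after its values were seen. The tetherin gene Bst2 stood at 224 to 647 in the 5 libraries of high mitochondrial share and at 445 to 1068 in the other 12. The remaining effectors had log2 differences between -0.65 and 0.55 in the 4 simple comparisons, none past the test.

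**Figure D3:**
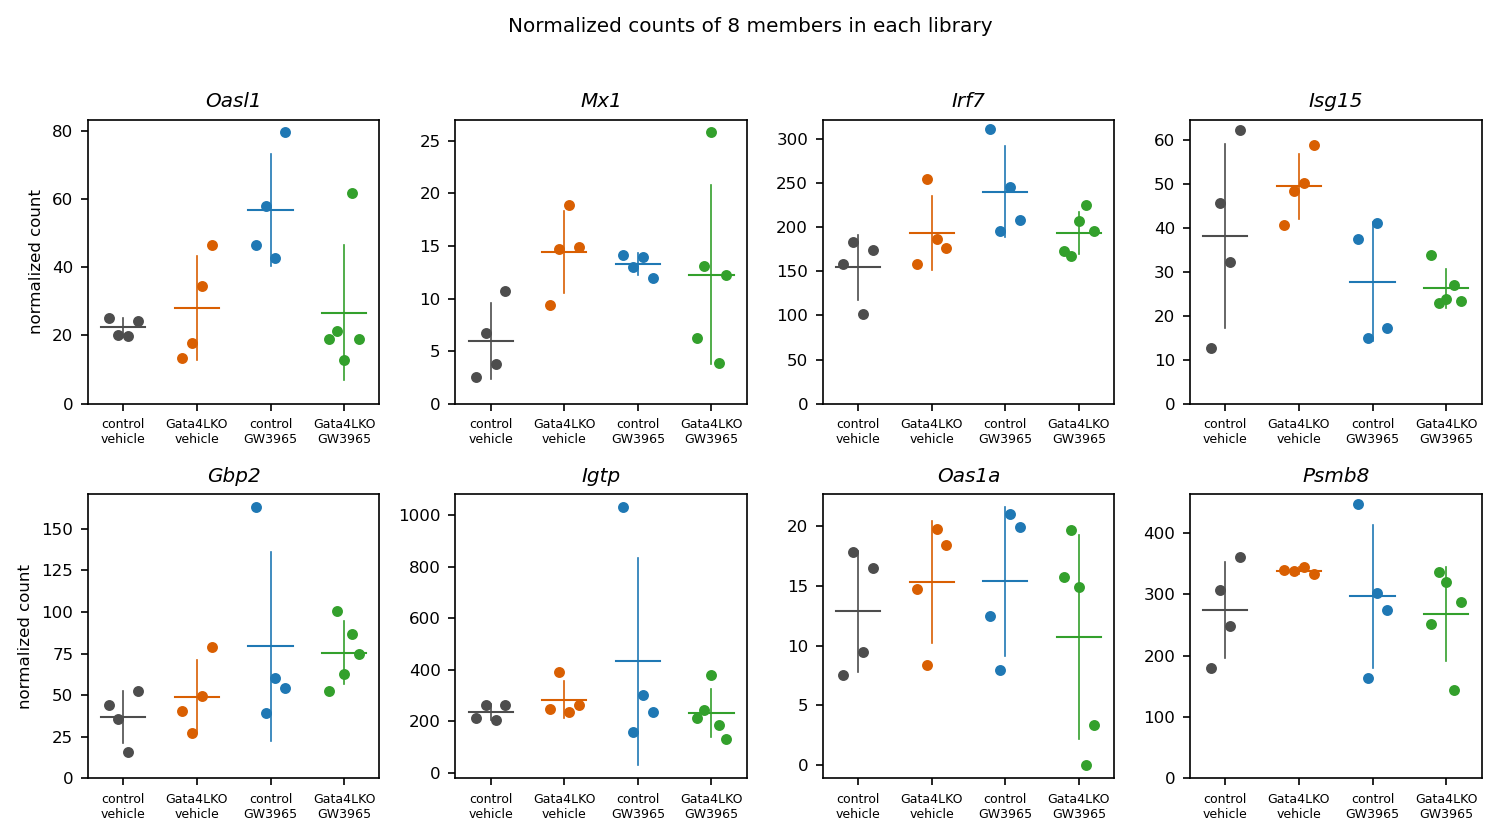
Normalized counts of 8 members in each library, with group means (horizontal lines) and SD (vertical lines). Oasl1, Mx1 and Irf7 are higher in all 4 control GW3965 libraries than in any control vehicle library, and 1 control GW3965 library stands far above the others for Igtp and Gbp2.

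Isg15 encodes a ubiquitin-like protein that is joined to other proteins, and Usp18 removes it and also restrains the interferon receptor. Normalized counts of Isg15 were 12.6, 45.7, 32.2 and 62.1 in control vehicle and 40.7, 48.4, 50.1 and 58.7 in Gata4LKO vehicle libraries. In the GW3965 groups they were 37.5, 15, 41.1 and 17.3 in control and 33.8, 22.9, 23.9, 26.98 and 23.4 in Gata4LKO libraries. All 5 Gata4LKO GW3965 libraries were below all 4 Gata4LKO vehicle libraries, and Isg15 was the 1 member lower without overlap in that comparison (2.34% of all genes; 0 members higher, against 2.91%). Replicates 1, 10 and 13, libraries of high mitochondrial share, held the 3 lowest values of the series. The difference of GW3965 in Gata4LKO livers was -0.90 ± 0.38 (limma adjusted p = 0.367), and -0.87 without the high mitochondrial libraries. In control livers it was -0.37 ± 0.40 (limma adjusted p = 0.913), running from -0.81 without replicate 1 to -0.075 without replicate 4. In control vehicle libraries Usp18 was at 59.4, 55.7, 71.9 and 153 normalized counts, and in Gata4LKO vehicle libraries at 66.1, 70.5, 112 and 124. After GW3965 the values were 140.0, 39, 91.8 and 102 in control and 85.6, 91.5, 58.7, 57.8 and 75.9 in Gata4LKO libraries. The groups overlapped, with log2 differences between -0.30 and 0.21 in the 4 simple comparisons (limma adjusted p of 0.699 or more). Of the ubiquitin ligases and their relatives, Trim25 ran from 1085 to 1819 normalized counts over the 17 libraries, Dtx3l from 992 to 1374, Herc6 from 153 to 337 and Trim30a from 67.9 to 145. The PARP genes Parp9, Parp12 and Parp14, which encode ADP-ribosyltransferases or their relatives, had log2 differences between -0.19 and 0.34.

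The interferon-inducible GTPases and the antigen-processing genes are the members most tied to interferon gamma in textbooks, and all 8 had their highest value in 1 library. GBP and IRG proteins attack the vacuoles of intracellular microbes. For Gbp2 the normalized counts were 44.2, 35.6, 16.1 and 52.4 in control vehicle and 40.7, 27.4, 49.3 and 78.9 in Gata4LKO vehicle libraries. The control GW3965 libraries had 163, 39, 60.3 and 54.5, and the Gata4LKO GW3965 libraries 52.6, 100.5, 62.6, 86.7 and 74.8. Replicate 9 of control GW3965 was the highest and the other values overlapped. GW3965 in control livers gave 0.97 ± 0.42 (limma adjusted p = 0.472), and 0.55 without that library. In Gata4LKO livers it gave 0.68 ± 0.40 (limma adjusted p = 0.482). Gbp3 stood at 85.9, 55.7, 37.8 and 78.6 normalized counts in the 4 control vehicle libraries and at 88.8, 209, 99.3 and 91.1 in the 4 Gata4LKO vehicle libraries. With GW3965 it stood at 221, 33, 75.2 and 112 in control and at 91.9, 105, 58.7, 94.4 and 137 in Gata4LKO libraries. With vehicle, the Gata4LKO libraries were above all controls, replicate 6 by far. That difference was 0.88 ± 0.44 (limma adjusted p = 0.826), and 0.59 without replicate 6. Normalized counts of Igtp were 212, 263, 203 and 262 in control vehicle and 246, 390.3, 236 and 263 in Gata4LKO vehicle libraries. In the GW3965 groups they were 1030.2, 158, 302 and 238 in control and 214, 243, 381, 185 and 131 in Gata4LKO libraries. Igtp, named after its values were seen, had 1 library at 1030.2 and no other above 390.3. GW3965 in control livers gave 0.49 ± 0.41 (limma adjusted p = 0.855), and -0.056 without replicate 9.

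Psmb8 and Psmb9 encode catalytic subunits of the immunoproteasome, and Tap1 a subunit of the transporter that brings peptides to class I molecules. In control vehicle libraries Psmb8 was at 179, 307, 249 and 361 normalized counts, and in Gata4LKO vehicle libraries at 339, 338, 345 and 332. After GW3965 the values were 448, 164, 302 and 274 in control and 251, 336, 320.1, 145 and 287 in Gata4LKO libraries. The 4 Gata4LKO vehicle libraries lay within 332 and 345, inside the range of the control vehicle libraries. Log2 differences ran from -0.40 for GW3965 in Gata4LKO livers to 0.35 for genotype with vehicle (limma adjusted p = 0.529 and 0.946). The first was -0.19 without replicate 17 and the second 0.16 without replicate 1. Psmb9 and Tap1 were also highest in replicate 9 of control GW3965, at 217 and 623, with at most 144 and 385 in the other 16 libraries.

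Replicate 9 of control GW3965 stood apart in part of the module, chiefly the GTPases and antigen-processing genes. It held the highest value of the 17 libraries for 15 of 44 members, and for 5.32% of all genes. These were Irf7, Irf9, Zbp1, Mx2, Rtp4, Parp12, Parp14, all 5 GTPases (Gbp2, Gbp3, Gbp7, Igtp and Irgm1) and all 3 antigen-processing genes. Against the mean of the other 3 control GW3965 libraries, the median ratio was 3.01 over the GTPases, 2.78 over the antigen-processing genes, 1.36 over all 44 members and 0.994 over all genes. None of the IFIT, OAS or ISG15 and ubiquitin ligase members had its highest value there, and the median ratio of the OAS family was 0.767. Over the 44 members the mean of log2(normalized count + 1) deviated by 0.48 from its mean over libraries in replicate 9, the most of any library. The ratios rest on the other 3 control GW3965 libraries too, of which replicates 10 and 13 were of high mitochondrial share. Replicate 10 had the lowest value of the 17 libraries for 8 members and for 5.49% of all genes. It deviated by -0.70 for the GTPases and -0.82 for antigen processing, against -0.26 to 0.051 in replicates 12 and 13.

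**Figure D4:**
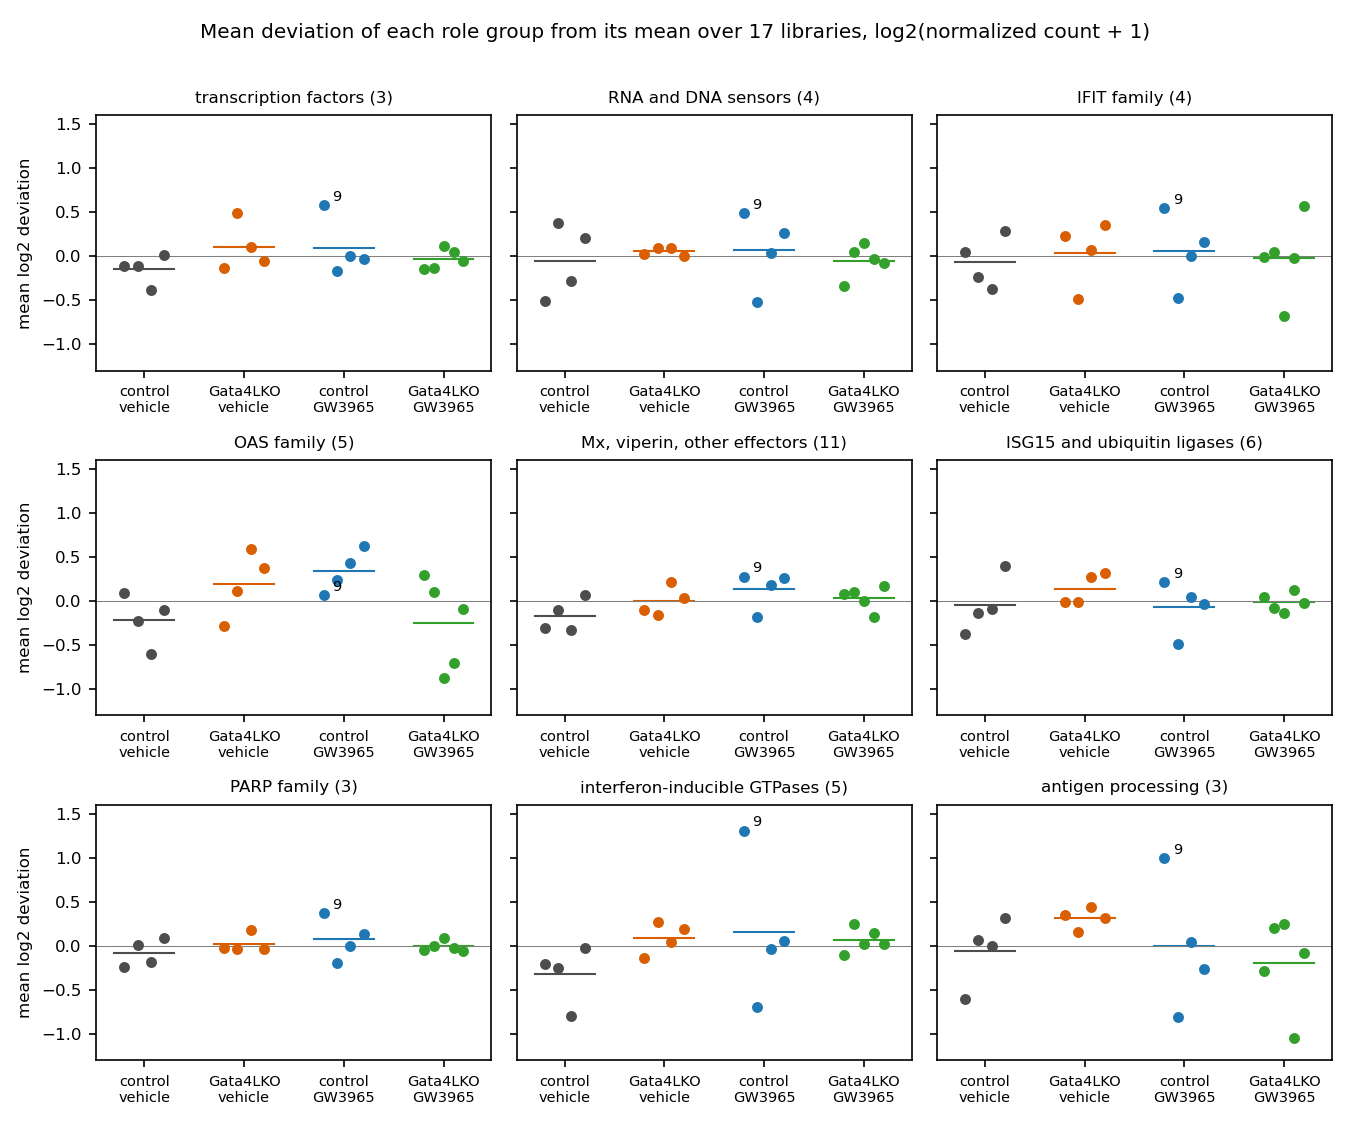
Mean deviation of each role group from its own mean over the 17 libraries, on the log2(normalized count + 1) scale, with 1 point per library and lines at group means. Replicate 9 of control GW3965 (marked 9) lies at 1.31 for the interferon-inducible GTPases and 1.00 for antigen processing, and at 0.066 for the OAS family.

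Leaving that library out lowered the members' median with GW3965 in control livers. It had been singled out for its high values, so the fall is not separate evidence. Without it the median log2 difference over the members there was 0.037 and 25 of 44 had a higher mean, and between genotypes with GW3965 the median was 0.074 with 28 of 44 higher. The GTPases went from a median of 0.49 to 0.049 and antigen processing from 0.073 to -0.19. The OAS family was 0.45 with the library and 0.58 without it. Without the 5 high mitochondrial libraries, which leaves 2 control GW3965 libraries of which replicate 9 is 1, the member median was 0.32. No member was called without replicate 9 or without the high mitochondrial libraries. In this fit the smallest adjusted p of a member for GW3965 in control livers was 0.195 without replicate 9 and 0.170 without the high mitochondrial libraries.

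In replicate 9, 15 genes stood at least 2-fold above every other library, and Igtp was the 1 member among them. That count was not the highest: it ran from 0 to 63 over the 17 libraries, with 63 in replicate 17, 22 in replicate 16 and 21 in replicate 6, and 0 members among those of any other library. The gene farthest above the next library in replicate 9 was BC023105, at 693 against 98.9. The others in replicate 9 included Irgm2 at 2714 and Gbp4 at 264, both interferon-inducible GTPases, Tgtp1 at 79.2, Gbp5 at 108, and the transcription factor Irf1 at 943. Fpr2 at 48.3, Calhm6 at 45.0, Serpina3g at 233, Tgtp2 at 35.0, Gm12250 at 74.2 and Adamts7 at 402 were on the list too. The macrophage genes Marco at 1754 and Siglece at 121 were also among them, while other Kupffer cell markers were not, as given below. The list was made from the values of that library and is given as a description.

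Of 73 other genes of the interferon pathway, 60 were tested. limma called 1, Gbp4, higher with GW3965 in control livers (0.605% of all genes called higher), and 0 in the other 6 comparisons. In those 6, 5 to 11 had an unadjusted limma p below 0.05, as did 4.65% to 15.3% of all genes. edgeR called 1 with GW3965 in control livers (0.755% of all genes) and 0 elsewhere. DESeq2 called 1 there, 1 between genotypes with GW3965 and 4 for GW3965 averaged (1.69%, 0.606% and 3.94% of all genes). Gbp4 stood at 64.4, 42.3, 29.3 and 40.8 in control vehicle and at 264, 86.0, 101 and 95.6 in control GW3965 libraries, with no overlap. Its difference was 1.498 ± 0.34 (limma adjusted p = 0.04996) and 1.13 without replicate 9 (limma adjusted p = 0.127). The call was also lost without each of replicates 2, 3, 4, 10, 12 and 13, and with a term for Gm5345 (1.19; limma adjusted p = 0.543). With a pseudocount of 0.5 or 10 the limma adjusted p for Gbp4 was 0.0501 and 0.0515, without a filter 0.0709, with only the groups compared 0.165 and without the few-gene libraries 0.0526. Irf1, a transcription factor induced by interferon gamma, was at 943 in replicate 9 and between 231 and 469 elsewhere. It had log2 differences between -0.33 and 0.44 in the 4 simple comparisons (limma adjusted p of 0.640 or more). Of the 60 tested genes, 20, Irf1 and Cxcl10 among them, had their highest value in replicate 9, against 5.32% of all genes. Cxcl9, Psme1 and B2m did not. Their ratios to the mean of the other control GW3965 libraries were 1.01, 0.80 and 0.64. The receptor genes Ifnar1 (586 to 815) and Ifnar2 (407 to 1031) were expressed in every library, with log2 differences between -0.14 and 0.28. Ifng was at 0 in 12 libraries and at most 1.75 in the other 5, under the filter. Ifnb1 was not analysed here. By sign, 46 of the 60 were higher in Gata4LKO with vehicle and 46 of 60 with GW3965 in control livers, which share the control vehicle libraries.

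Markers of Kupffer cells had higher means in both comparisons in which the members leaned upward. The summed normalized counts of 11 Kupffer cell and macrophage markers were 2429 to 3385 in control vehicle, 4220 to 5155 in Gata4LKO vehicle, 4239 to 7071 in control GW3965 and 4295 to 6381 in Gata4LKO GW3965 libraries. The highest, 7071, was replicate 9 of control GW3965, of which Marco, a scavenger receptor, gave 1754. Without Marco the sum there was 5318, and 2 Gata4LKO GW3965 libraries were higher, up to 5779. The group median of the sum of all 11 was 5118 in Gata4LKO GW3965, 4878 in Gata4LKO vehicle and 4792 in control GW3965. It was thus not lower in either comparison in which the members leaned downward. Of the 11 markers, 6 were above the other 3 control GW3965 libraries in replicate 9, 3 were within them and 2 were below. The 2 below were Clec4f, a Kupffer cell lectin, at 764 (others 1121 to 1479), and Vsig4, a complement receptor, at 282 (others 290.01 to 384). All 11 had a higher mean in Gata4LKO than control with vehicle and with GW3965 than vehicle in control livers. Cd5l, which encodes a secreted macrophage protein, passed the test in the latter (1.21 ± 0.21; limma adjusted p = 0.0126). No Kupffer marker was at 0 in all libraries of a group. Without replicate 9 the Cd5l difference was 1.03 (limma adjusted p = 0.0327), and the call was lost without control vehicle replicate 3 (1.09; limma adjusted p = 0.0526), with a term for Gm5345 (1.04; limma adjusted p = 0.287) and with only the groups compared (1.21; limma adjusted p = 0.0967). Markers of stellate cells, the vitamin A storing cells of liver, had higher sums in the group that both downward comparisons share. Their 6 markers summed to 4380 to 6233 in the 5 Gata4LKO GW3965 libraries and to between 3018 and 4254 in the other 12. All 6 had a higher mean in Gata4LKO than control with GW3965 and with GW3965 than vehicle in Gata4LKO livers. In both, limma called 0, with 4 and 5 at an unadjusted p below 0.05 (6.47% and 12% of all genes). DESeq2 called 1 and 3 of them (0.606% and 1.5% of all genes). Sums of the 7 sinusoidal endothelial markers overlapped between groups, from 2738 to 5305 over all libraries. Lymphocyte markers summed to 44.2 to 103 and markers of recruited myeloid cells to 33.8 to 122 over all libraries, with the groups overlapping. The 5 markers of plasmacytoid dendritic cells, known for making type I interferon, summed to 391 to 644, and 1 of them was at 0 in all control vehicle libraries. Most of that sum was Tcf4, at 270 to 540, and Irf8, at 58.1 to 137. Siglech, Ccr9 and Klk1 were at 23.4 normalized counts or below in every library. Hepatocyte markers summed to 1846474 to 2007595 in control vehicle and 1478309 to 1718322 in Gata4LKO vehicle libraries, without overlap. Most of that sum was Alb, at 1268623 to 1455612 and 1020297 to 1215421 in those groups, so the sum is mainly a measure of Alb. With GW3965 the sums overlapped, at 1586554 to 2255753 in control and 1365985 to 1696994 in Gata4LKO libraries. In bulk RNA, more cells of a type and more RNA per cell cannot be told apart, and the part of these markers in the members' values was not tested.

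The libraries of high mitochondrial share were also set beside their own groups, in the 3 groups that hold both kinds. In all 3, 16 of 44 members had a lower mean in the high mitochondrial libraries and 6 a higher one. The shares of all genes were 28.9% and 27.5%. In control GW3965, replicates 10 and 13 were set against replicates 9 and 12 only, so the high values of replicate 9 enter that comparison. The 16 included Psmb8, Psmb9, Tap1, Igtp and Irgm1, but not Gbp2, Gbp3 or Gbp7.

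**Figure D5:**
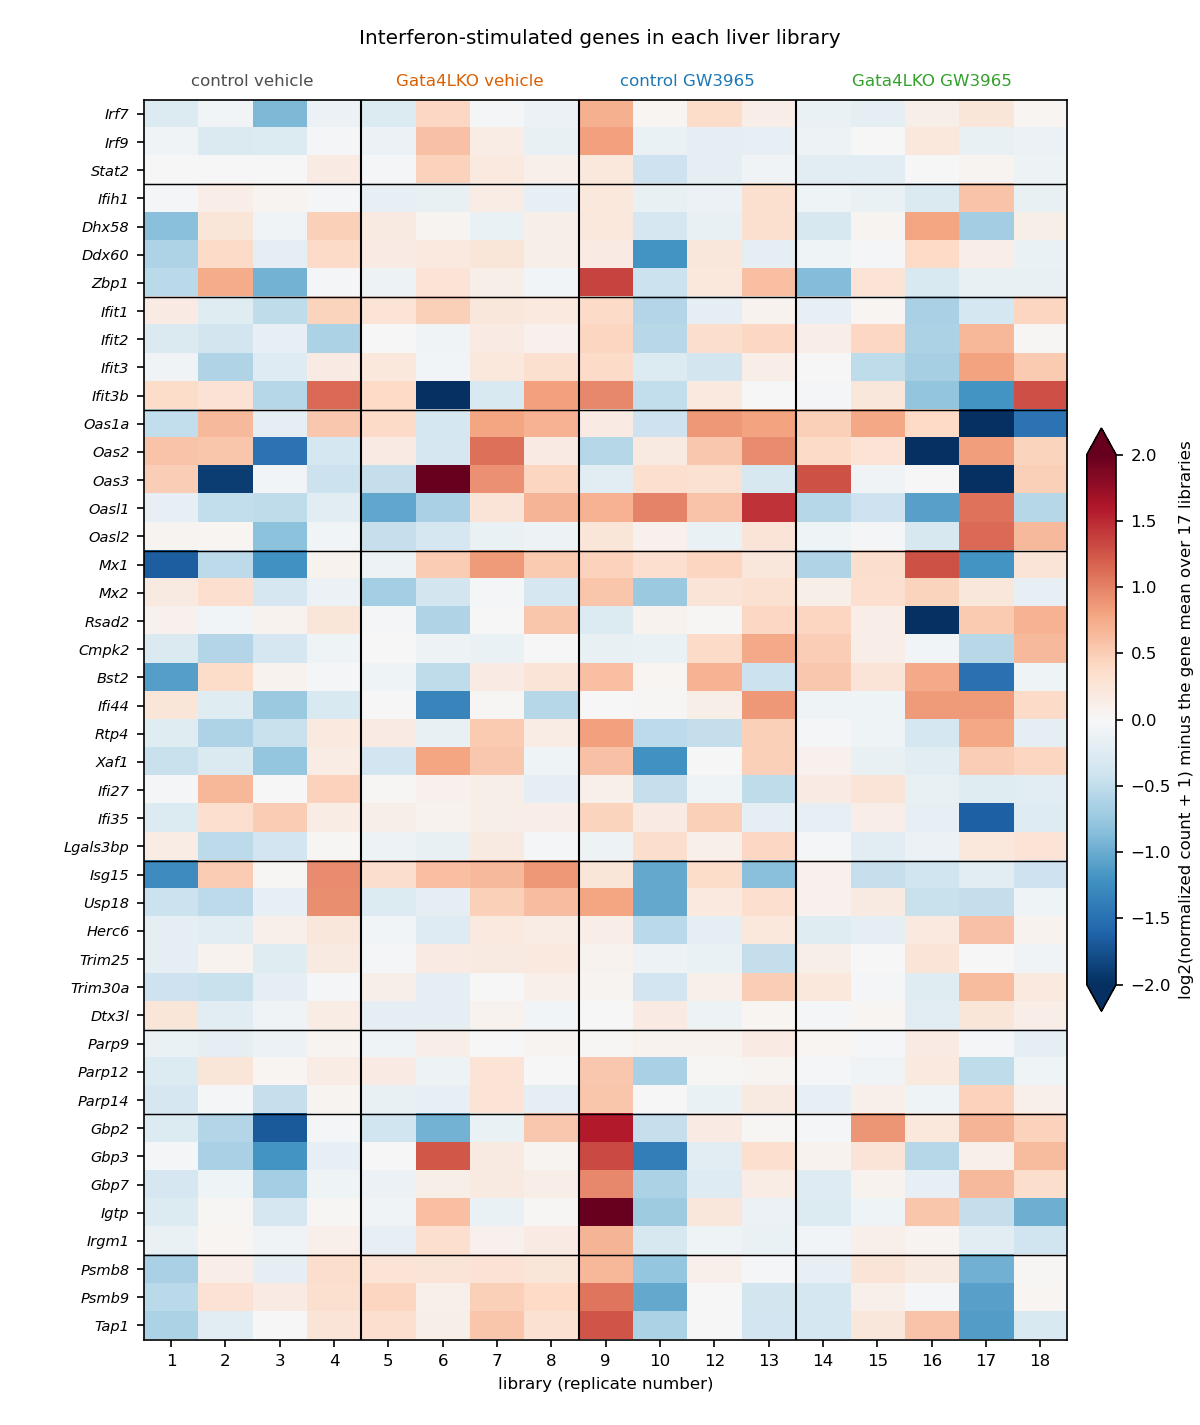
Log2(normalized count + 1) of the 44 members minus each gene's mean over the 17 libraries, with libraries in columns by group and members in rows by role (separated by lines). The column of replicate 9 is red from Gbp2 to Tap1, and no group is uniformly of 1 colour.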

How the data were processed

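RNA-seq of 17 mouse liver libraries was deposited as a table of normalized counts, a signal per gene that the authors made, per the file headers, with 1 column per library. The submitters' processing notes name STAR 2.6.0c, mm10, FastQC and DESeq2; for counter, annotation and strand, nothing is stated in the sources used here. Values are reads divided by 1 size factor per library: whole reads were recovered for 100% of values within 0.05 read. Libraries held 11.8 to 22.05 M reads in genes. The authors' deposited tables also give log2 fold changes and p-values for 5 comparisons, which were used only for their calls.

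The 13379 genes at 10 normalized counts or above in 4 or more libraries were tested on log2(normalized count + 1) with limma 3.58.1 (R 4.3.3), 1 coefficient per group and all 17 libraries, with Benjamini-Hochberg adjustment over those genes and calls at an adjusted p below 0.05. The pseudocount of 1 understates changes of low genes. edgeR 4.0.16 and DESeq2 1.42.0 were run on the recovered reads as alternatives. The scripts were tested on simulated data. Other alternatives were the pseudocount, the filter, TMM scaling, the groups in the fit, a term for Gm5345, and leaving out single libraries, those of high mitochondrial share or those with few genes.

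The members, lists and tests were chosen with earlier results of these data known. Named in full were 8 members fixed by role (Irf7, Stat2, Ifih1, Ifit1, Isg15, Usp18, Gbp2 and Psmb8), the 3 with the largest log2 difference in each simple comparison, and the 2 with the smallest p in the interaction. Promoters came from RefSeq. Figures were drawn with matplotlib 3.10.9.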

Additional observations from a re-analysis of the deposited data

Results flagged for a closer look

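In 15 of 176 pairs of a member and a group, the highest or lowest library stood apart from the rest of its group by Dixon's criterion. Chance flags about 1 in 20 groups, or 8.8 of 176. No member had a called interaction of genotype and GW3965.

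Single high libraries were Irf9 at 696 in control GW3965 replicate 9 (others 345 to 357), Stat2 at 1081 in control vehicle replicate 4, and Ifi44 at 79.7 in control GW3965 replicate 13. In Gata4LKO vehicle, Ifih1 at 713 and Parp14 at 902 stood high in replicate 7, and Gbp3 at 209 in replicate 6. In Gata4LKO GW3965 replicate 17, Ifih1 at 956 and Rtp4 at 258 stood high, while Ifi35 at 55.9 stood low.

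Single low libraries were Ifit2 at 41.0 in control GW3965 replicate 10, Oasl2 at 32.2 in control vehicle replicate 3, Ifi35 at 184 in Gata4LKO vehicle replicate 6 and Trim25 at 1484 in Gata4LKO vehicle replicate 5. In Gata4LKO GW3965 replicate 16, Oas2 at 0.994 and Rsad2 at 14.9 stood low. Replicate 17 has the highest mitochondrial share and replicates 6 and 16 the fewest genes above 0; their part in these values was not tested.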

How the results depend on the processing

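The count of members called stayed at 0 in all 7 comparisons under every alternative run, and each member median moved by less than 0.21 (SD). The nearest adjusted p was 0.0573, for GW3965 averaged with 1 library left out. With single libraries left out the medians ran from 0.12 to 0.31 (genotype with vehicle), -0.20 to 0.074 (genotype with GW3965), 0.037 to 0.35 (GW3965 in control) and -0.13 to -0.058 (GW3965 in Gata4LKO). The fit on only the groups compared gives no separate value for the interaction and averages. No paired analysis was possible because the replicate numbers run on through the groups and none is shared.

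All reversals were of uncalled differences, and the cause was not tested. Without the high mitochondrial libraries, the genotype difference with GW3965 was -0.52 for Gbp2, -0.55 for Isg15, 0.033 for Oas1a and -0.15 for Stat2. GW3965 gave -0.0079 for Ifih1 and 0.20 for Ifit1 in control, and -0.090 for Ifih1, -0.070 for Irf7 and 0.18 for Oas1a in Gata4LKO livers. edgeR and DESeq2 gave -0.089 and -0.079 for Gbp2 and -0.10 and -0.098 for Isg15 (genotype with GW3965), and -0.011 and -0.0030 for Irf7 (GW3965 in Gata4LKO). A Gm5345 term gave -0.063 for Gbp2 (genotype with vehicle), -0.043 for Isg15 (genotype with GW3965) and -0.0066 for Ifih1 (GW3965 in Gata4LKO). Without the few-gene libraries, genotype with GW3965 gave 0.065 for Ifit1 and -0.0071 for Stat2.

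With single libraries left out, genotype with GW3965 ran from -0.14 to 0.54 for Gbp2, -0.23 to 0.00032 for Ifih1, -0.23 to 0.093 for Ifit1, -0.20 to 0.26 for Isg15, -0.37 to 0.11 for Psmb8, -0.080 to 0.12 for Stat2 and -0.59 to 0.019 for Usp18. GW3965 in control ran from -0.052 to 0.10 for Ifih1, -0.20 to 0.12 for Ifit1, -0.15 to 0.33 for Psmb8 and -0.12 to 0.49 for Usp18. In Gata4LKO it ran from -0.086 to 0.14 for Ifih1 and -0.077 to 0.15 for Irf7. Of 46 differences of single genes followed this way, these 13 changed sign, 20 kept it but moved by over 1.5 times, and 13 did neither. Among the 20, genotype with vehicle ran from 0.067 to 0.65 for Gbp2, 0.17 to 0.49 for Ifit1, 0.12 to 0.86 for Isg15, 0.048 to 0.53 for Usp18, 0.045 to 0.20 for Stat2 and -0.19 to -0.082 for Ifih1. GW3965 in control ran from 0.55 to 1.23 for Gbp2 and -0.26 to -0.060 for Stat2. In Gata4LKO it ran from 0.44 to 0.93 for Gbp2, -0.45 to -0.15 for Usp18 and -1.42 to -0.33 for Oas1a, and genotype with GW3965 ran from -1.40 to -0.31 for Oas1a. The others are given with their genes above.

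Over all genes, limma and DESeq2 called 2 and 49 (genotype with vehicle), 8 and 81 (genotype with GW3965), 106 and 226 (GW3965 in control), 33 and 200 (GW3965 in Gata4LKO), 2 and 26 (interaction), 238 and 527 (GW3965 averaged) and 30 and 129 (genotype averaged). With only the groups compared limma called 21, 1, 19 and 30 genes in the 4 simple comparisons, and with a Gm5345 term 0, 2, 12 and 1. Without a filter it called 57 for GW3965 in control, without the high mitochondrial libraries 14 for genotype with vehicle and 63 for GW3965 in control, and without the few-gene libraries 4 for GW3965 in Gata4LKO. For genotype averaged the Gm5345 term gave 8.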
